A study of Homo sapiens with 18 samples.

Results

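Cells that had carried both fusion genes of the t(4;11) translocation were compared with cells that had carried only the reciprocal fusion AF4-MLL, 4 weeks after the start of the experiment. The readout was ATAC-seq, in which a transposase inserts into open DNA, counted per gene. The comparison used 6 of the 18 libraries, all from HEK293T, a transfected human embryonic kidney line. The 3 co-expression libraries of day 28 came from cells with a constitutive MLL-AF4 construct and an inducible AF4-MLL construct, and the 3 AF4-MLL libraries of day 28 from cells with the inducible AF4-MLL construct alone. In both groups doxycycline (1 µg/ml, 48 h) had induced AF4-MLL and was then withdrawn, so the samples of day 28 were taken long after the pulse. The other 12 libraries were co-expression and AF4-MLL cells on day 3 and cells with inducible MLL-AF4, treated alike, on both days, again with 3 libraries in each group. The labels call the 3 libraries of a group biological replicates. By the study's methods the co-expression cells were made by transient transfection of the AF4-MLL vector into a line already stable for MLL-AF4, so the constructs and the history of the cell line cannot be told apart. The labels name no mock-transfected library.

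MLL (the gene KMT2A) is a histone H3 lysine 4 methyltransferase that keeps developmental genes such as the HOX clusters active, and AF4 (AFF1) is a scaffold of the super elongation complex, which releases paused RNA polymerase II. MLL-AF4 keeps the amino-terminal part of MLL, with the CXXC domain that binds unmethylated CG-rich DNA, joined to most of AF4. AF4-MLL keeps the amino terminus of AF4, which binds the elongation factor P-TEFb, joined to the part of MLL that ends in the methyltransferase domain. In ATAC-seq a higher count at a gene means more transposase insertions at that gene per library. Such a count grows with the openness of the DNA and with the number of copies of it, and no input DNA was counted in the table, so accessibility and copy number cannot be told apart here. Nor can fewer cells with an open site be told apart from less opening per cell.

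On day 28 the libraries held 3539937, 2183741 and 1058754 counts in co-expression cells and 2150760, 2943823 and 1953507 in AF4-MLL cells. Mitochondrial and nuclear counts made up these totals, and the nuclear part was 376209 to 1116385 counts in co-expression cells and 710257 to 943248 in AF4-MLL cells. Values of single genes are given as CPM (counts per 1000000, on library sizes scaled by TMM), where 1 count was worth 0.470, 0.623 and 1.33 CPM in co-expression libraries 1 to 3 and 0.552 to 0.698 CPM in AF4-MLL libraries. Counts at a gene were thus few, and replicate 3 of the co-expression cells is the shallowest of the 6. The 12 genes listed as markers of the HEK293 line, all 12 of them tested, were counted alike in both groups. Their summed level was 452 to 464 CPM in co-expression cells and 417 to 474 CPM in AF4-MLL cells. The list also holds general genes such as ACTB, GAPDH and EEF1A1, so this sum does not identify the line.

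Of 17660 genes tested, 299 differed between co-expression and AF4-MLL cells on day 28 at an adjusted p under 0.05 (edgeR quasi-likelihood test, Benjamini-Hochberg over all genes; such genes are said to be called below), 1.69% of the genes tested. Co-expression cells were higher at 124 of them (0.702%) and lower at 175 (0.991%). The differences were of moderate size, with a median absolute log2 difference of 0.86 over the called genes. In 285 of the 299 the 3 libraries of one group all lay above the 3 of the other, against 2967 of all 17660 genes (16.8%). Of the called genes, 247 were protein-coding (102 higher, 145 lower) and 16 were long non-coding RNA genes (10 higher, 6 lower). These were 1.77% of 13973 protein-coding and 1.56% of 1026 long non-coding RNA genes tested, both near the 1.69% of all genes. The number of calls depended on the libraries: it was 103, 122 and 200 without co-expression replicate 1, 2 or 3 and 190, 125 and 151 without AF4-MLL replicate 1, 2 or 3, and DESeq2 called 33 genes on all libraries. The differences took 2 forms that are described in turn. Most called genes lay in long chromosomal stretches in which the larger part of the genes leaned the same way by a modest amount. A smaller number stood out from their own neighbours.

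The loci of the second form include the host gene of 2 let-7 microRNAs on chromosome 22, the phosphatase gene DUSP2 on chromosome 2 and TCTEX1D1 on chromosome 1. The let-7 microRNAs repress growth-promoting mRNAs by pairing through their seed (bases 2 to 8), and the seed, in capitals, is the same in both that the host gene MIRLET7BHG carries. They are shown, 5′ to 3′, because this locus rose in co-expression cells on both days. The RefSeq mature sequences (GRCh38.p14) lie on the plus strand at chr22:46112752-46112773 and chr22:46113691-46113712.
hsa-let-7a-5p: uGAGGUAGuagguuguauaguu
hsa-let-7b-5p: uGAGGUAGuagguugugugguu

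The 250 bases before the RefSeq start of 3 such loci are shown because the CXXC domain of MLL, present in one fusion and absent from the other, binds CG. CG is in capitals and was searched as the letters CG, which read the same on both strands. The windows are chr22:46085747-46085996 on the plus strand for MIRLET7BHG, which was higher in co-expression cells, chr2:96145441-96145690 on the minus strand for DUSP2, which was lower, and chr1:66752209-66752458 on the plus strand for TCTEX1D1, which was higher and is named DYNLT5 by RefSeq.
MIRLET7BHG: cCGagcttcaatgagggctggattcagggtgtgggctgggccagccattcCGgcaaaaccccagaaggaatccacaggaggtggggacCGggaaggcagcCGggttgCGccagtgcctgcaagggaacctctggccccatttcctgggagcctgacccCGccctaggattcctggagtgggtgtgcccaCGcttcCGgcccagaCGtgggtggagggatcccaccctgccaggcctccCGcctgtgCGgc
DUSP2: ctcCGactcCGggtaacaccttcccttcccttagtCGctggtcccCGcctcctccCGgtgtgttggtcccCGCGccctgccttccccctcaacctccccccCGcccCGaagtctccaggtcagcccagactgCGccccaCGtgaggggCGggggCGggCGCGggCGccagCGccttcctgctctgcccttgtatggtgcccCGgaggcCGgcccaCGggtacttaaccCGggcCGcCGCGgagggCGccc
DYNLT5: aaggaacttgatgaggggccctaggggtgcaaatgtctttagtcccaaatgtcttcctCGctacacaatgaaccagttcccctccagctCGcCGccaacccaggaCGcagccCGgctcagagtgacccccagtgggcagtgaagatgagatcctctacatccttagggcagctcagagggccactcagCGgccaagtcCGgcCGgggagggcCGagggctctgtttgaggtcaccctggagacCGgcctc

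The window of MIRLET7BHG held 11 CG, that of DUSP2 25 and that of DYNLT5 10. Of all 35116 RefSeq windows of this length 93.9% held at least 1 CG, with a median of 11, and 50.3%, 21.6% and 52.2% held at least as many as these 3. Among genes tested with a window, the median was 21 CG (n = 12177), against 18 for called genes that were higher in co-expression cells (n = 98) and 23.5 for those that were lower (n = 128). Among the genes that stood out from their neighbours (those called after local scaling, described further on) the median was 18 CG for both the higher (n = 6) and the lower ones (n = 14). These counts describe the windows and were not tested.

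To see where in the genome the differences lay, the tested genes with a RefSeq position were put in chromosomal order and summed in 298 blocks of 50 neighbours. On day 28 89 blocks (29.9%) differed between the groups by limma with an adjusted p under 0.05, 55 higher and 34 lower in co-expression cells. They formed 34 runs of adjoining blocks, 23 higher and 11 lower, and most were of small size. The 6 runs with a mean difference of at least 0.25 on the log2 scale held 1787 tested genes and 178 of the 299 calls (59.5%), 76 higher and 102 lower. Of the 270 called genes with a RefSeq position, 202 (74.8%) lay in a called block of their own direction, 7 in a called block of the opposite direction and 61 in a block that was not called. Of all 15479 genes in blocks, 4604 lay in a called block of either direction. A called gene adds its own counts to its block, so part of the shared direction is built in. In the plot along the genome some runs, such as those on 15q and 17p, appear as plateaus with abrupt ends, and others pass gradually into the blocks beside them.

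**Figure D1:**
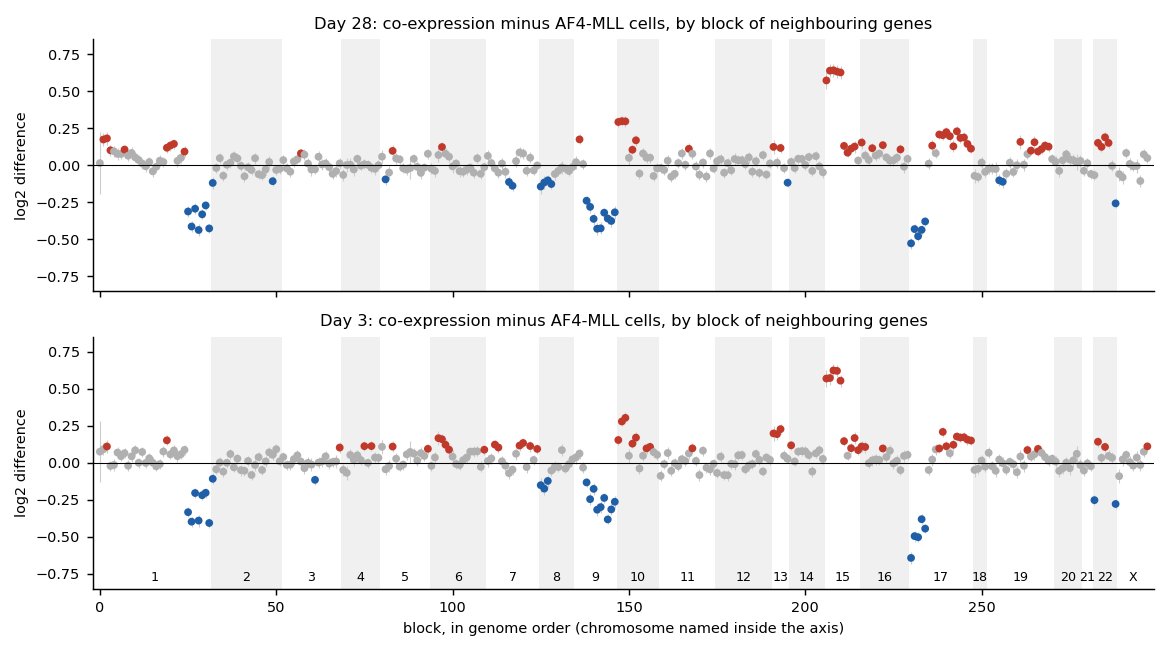
Log2 difference (co-expression minus AF4-MLL cells, day 28) of each block of 50 neighbouring tested genes, in genome order by chromosome, with blocks past an adjusted p of 0.05 (limma) in colour. The plateaus on 15q (log2 0.57 to 0.64), 17p (−0.53 to −0.38), 9 (−0.43 to −0.24) and 1q (−0.44 to −0.27) stand furthest from 0.

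The tallest plateau covered the first part of 15q, chr15:22494837-64387687, with 5 blocks and 250 tested genes. Relative to the mean of the AF4-MLL libraries, the co-expression libraries stood at 154, 153 and 155%, and the AF4-MLL libraries at 99.2, 100.5 and 100.3%. The 3 co-expression libraries were thus within a few points of each other and far above the other group. MLL-AF4 cells stood at 104% ± 1.8 (SD, n = 3) on the same scale, near AF4-MLL cells. Of the 250 genes 61 were called, all higher (24.4%), and 81.6% of the genes of the whole run on 15q had a log2 difference above 0. The level then fell in 1 step. The next 4 blocks, chr15:64387836-84580181, stood at 108% ± 0.2 (SD, n = 3) with 4 calls, all higher, and the last block of the chromosome had a log2 difference of 0.03 and was not called. A smaller plateau of the same direction, labelled 10p for its larger part, ran from ZMYND11 to ZNF487 (chr10:130088-43523894, 150 genes, 9 calls higher and 1 lower). Here the co-expression libraries stood at 119, 123 and 126%, and MLL-AF4 cells at 113% ± 1.7 (SD, n = 3), which places them between the other groups. Both 17q (chr17:40019104-83051770, 534 genes) and the first part of 22q (chr22:20394151-38656392, 200 genes) were higher in co-expression cells by less, at 113% ± 2 and 111% ± 2.3 (SD, n = 3). MLL-AF4 cells were as high there, at 113% ± 1.3 and 112% ± 1.2.

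Of the lower plateaus, the deepest covered 17p, chr17:142789-20319026, with 250 tested genes and 26 calls, all lower (10.4%). The co-expression libraries stood at 73.8, 73.8 and 73.2% of the AF4-MLL mean, whereas MLL-AF4 cells stood at 105% ± 0.57 (SD, n = 3). Only 4.8% of the genes of this run had a log2 difference above 0, and the block after it, from 20.4 Mb, was level at 0.01. Lower by nearly as much was 1q from the kinase gene ABL2 to the end (chr1:179099330-248930191, 382 genes). Its co-expression libraries stood at 77.9, 78.3 and 78.1% and MLL-AF4 cells at 93.2% ± 0.83 (SD, n = 3). In this run 41 genes were called, all lower (10.7%), while the block before it had a log2 difference of 0.09. On chromosome 9 the run from CNTNAP3 to the end (chr9:39064710-138272073, 463 genes, 26 calls, all lower) stood at 79.6, 79.4 and 77.8% in the co-expression libraries. There MLL-AF4 cells were also low, at 82.1% ± 0.33 (SD, n = 3). The last block of 22q (chr22:41833105-50799637, 92 genes) stood at 86.8, 81.2 and 82.9% with 8 calls lower and 2 higher, and MLL-AF4 cells at 101% ± 2.9 (SD, n = 3). The plateaus on 15q, 17p and 1q thus set the co-expression cells apart from both single-fusion cells in level, whereas 17q, the first part of 22q and chromosome 9 had a like level in MLL-AF4 cells. These are levels side by side, and the differences from MLL-AF4 cells were not tested.

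**Figure D2:**
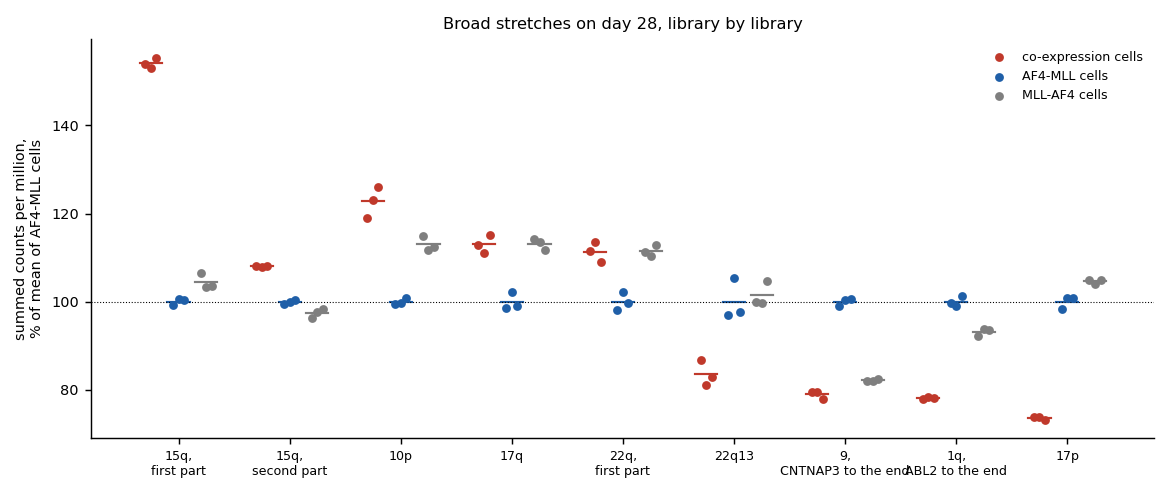
Level of 9 chromosomal stretches in each library of day 28, as a percent of the mean of the 3 AF4-MLL libraries, for co-expression, AF4-MLL and MLL-AF4 cells. The 3 co-expression points of each stretch lie close together, at 153 to 155% on the first part of 15q and at 73.2 to 73.8% on 17p.

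Named genes of the 15q plateau, those with the smallest adjusted p, differed by more than its mean. CHP1, a calcineurin-like calcium-binding protein that acts on sodium/proton exchangers, had 35.3, 36.1 and 23.9 CPM in the co-expression libraries and 11.1, 14.9 and 17.4 CPM in the AF4-MLL libraries (log2 1.21, SE 0.21, adjusted p 0.00013). CA12, a membrane carbonic anhydrase, had 24, 21.2 and 13.3 CPM against 6.51, 8.84 and 6.98 CPM (log2 1.47, SE 0.28, adjusted p 0.00031). MAPK6, an atypical MAP kinase also called ERK3, had 21.6, 23.7 and 37.2 CPM against 5.86, 14.9 and 8.37 CPM (log2 1.33, SE 0.26, adjusted p 0.00031). The rule that chose these genes took the smallest adjusted p and required that the groups do not overlap. The choice thus favours both the gap between the libraries and the excess over the plateau mean, which are descriptions. MGA, a transcriptional repressor that pairs with MAX, differed by 0.95 (adjusted p 0.00014) on the log2 scale. For RMDN3, a tether between mitochondria and the endoplasmic reticulum, the difference was 0.89 (adjusted p 0.00029), for GANC, a neutral glucosidase gene, 0.87 (adjusted p 0.00032), and for the intronic transcript GABPB1-IT1 1.09 (adjusted p 0.00014). When each block was brought to the same level in all libraries (called local scaling here), these 7 genes kept log2 differences of 0.23 to 0.84 and none was called.

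The called genes of 1q included COX20, an assembly factor of cytochrome c oxidase, and HNRNPU, a nuclear matrix RNA-binding protein. HNRNPU had 87, 84.7 and 90.4 CPM in the co-expression libraries and 132, 128 and 135 CPM in the AF4-MLL libraries (log2 −0.60, SE 0.11, adjusted p 0.00026), and COX20 differed by −0.72 (adjusted p 0.00017). CHRM3, the M3 muscarinic acetylcholine receptor gene, had 12.7, 12.5 and 9.3 CPM against 26.7, 29.3 and 27.9 CPM (log2 −1.22, SE 0.23, adjusted p 0.00028). Also lower were RYR2, the calcium release channel of heart muscle, with a log2 difference of −0.96 (adjusted p 0.00026), and PLD5, of the phospholipase D family, with −1.12 (adjusted p 0.00037). On chromosome 9 the extracellular matrix gene OLFML2A had 10.8, 13.1 and 16 CPM against 35.2, 24.9 and 28.6 CPM (log2 −1.22, SE 0.23, adjusted p 0.00026). TYMP, thymidine phosphorylase, on the last block of 22q differed by −0.98 (adjusted p 0.00042). With local scaling none of these 7 genes was called. On 10p the higher genes included PLXDC2, a plexin-domain membrane protein, and MPP7, a scaffold of cell junctions, with log2 differences of 0.76 (adjusted p 0.0085) and 0.86 (adjusted p 0.015). RNF43, a ubiquitin ligase that removes Wnt receptors from the cell surface, lay on 17q and differed by 0.73 (adjusted p 0.0051). Each of these 3 calls on 10p and 17q was lost in 2 of the 6 fits that leave out 1 library, for MPP7 those without co-expression replicate 1 or AF4-MLL replicate 2, and for PLXDC2 and RNF43 those without co-expression replicate 2 or AF4-MLL replicate 3. On 17p, where the rule named no gene, SREBF1, the transcription factor of fatty acid synthesis, and NUP88, a protein of the nuclear pore, were picked after their values were seen. SREBF1 had 35.3, 33.6 and 30.6 CPM against 52.7, 50.8 and 58.6 CPM (log2 −0.67, SE 0.16, adjusted p 0.0055; lost without AF4-MLL replicate 3). For NUP88 the difference was −0.67 (adjusted p 0.01), which was lost without co-expression replicate 1 or 2 or AF4-MLL replicate 1. Neither was called with local scaling, where their log2 differences were −0.31 and −0.23.

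After local scaling 37 genes were called (0.21% of those tested), 11 higher and 26 lower in co-expression cells, and all 37 were among the 299. Of these, 24 had a RefSeq position, and the median log2 difference of their nearest neighbours was under 0.25 in absolute value for 20 of the 24. Genes without a position kept the overall scaling, so their calls were not set against neighbours. A coarser scaling per chromosome left 154 calls, 144 of them shared with the 299.

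**Figure D3:**
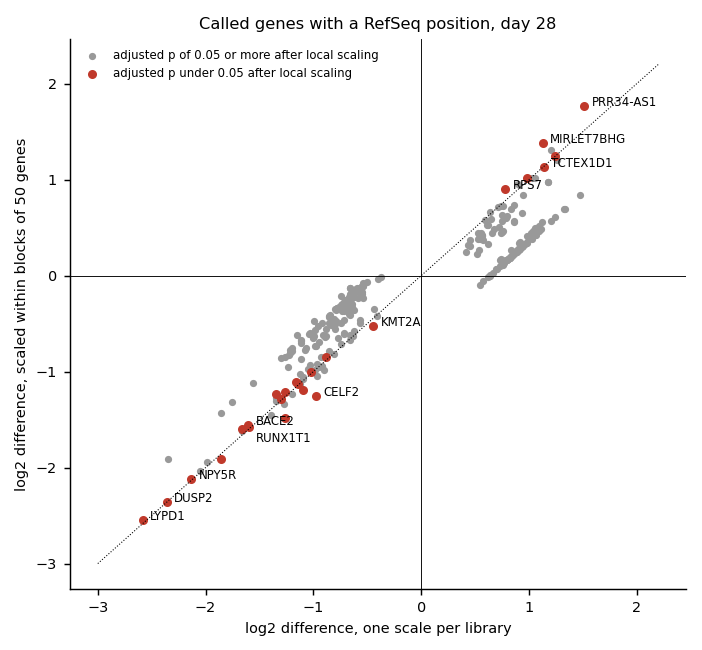
Log2 difference (co-expression minus AF4-MLL cells, day 28) of the 270 called genes with a RefSeq position, under the overall scaling and after local scaling. Local scaling brought each block of 50 neighbours to the same level in all libraries. The 24 genes still called after it are marked, and genes of the plateaus move toward 0.

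Among the genes that stood out upward was the let-7 host gene MIRLET7BHG (chr22:46085997-46113928), within the last block of 22q, which was itself lower. It had 34.3, 33.6 and 35.9 CPM in the co-expression libraries, 16.3, 18.2 and 11.9 CPM in the AF4-MLL libraries and 9.06, 12.8 and 16.1 CPM in the MLL-AF4 libraries. The co-expression libraries were also above all 3 MLL-AF4 libraries, which the rule did not use (log2 1.13, SE 0.21, adjusted p 0.00021 against AF4-MLL cells). With local scaling the difference was 1.38 (adjusted p 4.2e-06), set against a block at −0.26. The block's lower level was not seen close by, since the 10 tested genes nearest to MIRLET7BHG had a median log2 difference of 0.035. Its neighbour PRR34-AS1 (chr22:46053846-46058522), an antisense RNA gene named here after its values were seen, had 19.7, 16.2 and 14.6 CPM against 7.16, 5.52 and 5.58 CPM (log2 1.51, SE 0.32, adjusted p 0.00137 by edgeR). It overlaps PRR34, which had 13.6, 15.6 and 13.3 CPM against 11.1, 15.5 and 11.2 CPM (log2 0.16, adjusted p 0.88), and reads of the overlap cannot be assigned to either strand. The call for PRR34-AS1 was lost without co-expression replicate 1, while its log2 difference was at least 1.36 under every alternative run.

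TCTEX1D1 (chr1:66752459-66779047), a gene of the dynein light chain family, had 32.4, 33.6 and 42.5 CPM in the co-expression libraries and 18.9, 13.3 and 15.3 CPM in the AF4-MLL libraries (log2 1.14, SE 0.21, adjusted p 0.00021). MLL-AF4 cells lay between, at 24.7, 20.1 and 22.4 CPM, and the difference with local scaling was 1.13 (adjusted p 0.00053). RIPPLY2 (chr6:83853229-83857515), a transcriptional corepressor of somite formation, had 28.7, 44.2 and 42.5 CPM against 16.9, 16 and 23.7 CPM (log2 0.98, SE 0.20, adjusted p 0.00064), while its neighbours SNAP91 and CYB5R4 had log2 differences of 0.07 and −0.07. The call for RIPPLY2 was lost without co-expression replicate 2 (adjusted p 0.0625 by edgeR). RPS7, a protein of the small ribosomal subunit, had 37.6, 46.1 and 35.9 CPM against 20.8, 19.9 and 30.7 CPM (log2 0.78, SE 0.18, adjusted p 0.0055; local scaling 0.90 at adjusted p 0.0012). CDO1, the cysteine dioxygenase that begins cysteine breakdown, had 19.3, 13.1 and 18.6 CPM against 3.91, 6.63 and 11.2 CPM (log2 1.24, SE 0.31, adjusted p 0.012; local scaling 1.25 at adjusted p 0.04). HNRNPH1, a splicing regulator, differed by only 0.46 (adjusted p 0.01) on the log2 scale at a higher level, 138 ± 6.7 against 100.4 ± 6 CPM (SD, n = 3), and was not called with local scaling (0.38 at adjusted p 0.095). The calls for RPS7 (without co-expression replicate 2 or AF4-MLL replicate 2), HNRNPH1 (without co-expression replicate 1 or AF4-MLL replicate 3) and CDO1 (without co-expression replicate 1 or AF4-MLL replicate 1 or 2) were lost when 1 library was left out. Of the called genes that averaged 10 counts or more, the largest upward differences were at the clone-named genes AL121672.1 and AL121672.2, which had no RefSeq position. Both carry the name of the same clone, and without positions it cannot be told whether they share reads. AL121672.1 had 11.3, 14.9 and 12 CPM against 1.95, 1.66 and 1.4 CPM, 57 counts against 8, a ratio of 7.59 after scaling (95% interval 3.60 to 18.4, exact, counting error only). AL121672.2 had 11.8, 18.1 and 6.65 CPM against 1.3, 2.76 and 2.79 CPM (log2 2.46, SE 0.43, adjusted p 0.00011), and AC092718.7 differed by 1.58 (adjusted p 6.9e-05).

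Downward, RUNX1T1 on chromosome 8 had the smallest adjusted p of the protein-coding genes. It encodes ETO, a corepressor that is fused to RUNX1 in t(8;21) leukemia. It had 10.8, 7.47 and 16 CPM in the co-expression libraries, 36.5, 30.4 and 29.3 CPM in the AF4-MLL libraries and 31.3, 28.5 and 23.3 CPM in the MLL-AF4 libraries (log2 −1.60, SE 0.24, adjusted p 1.3e-06). Its neighbours OTUD6B and TRIQK had log2 differences of −0.33 and 0.01. RARB, the retinoic acid receptor beta gene, had 9.87, 10.6 and 10.6 CPM against 25.4, 22.7 and 26.5 CPM, and 23.9, 17.9 and 26.9 CPM in MLL-AF4 cells (log2 −1.26, SE 0.25, adjusted p 0.00046). BACE2 (chr21:41168160-41282530), an aspartyl protease related to the beta-secretase, had 5.17, 9.34 and 5.32 CPM against 18.2, 18.8 and 25.1 CPM (log2 −1.60, SE 0.29, adjusted p 0.0002), with 14, 20.6 and 14.3 CPM in MLL-AF4 cells. BACE2 overlaps PLAC4, which had a log2 difference of −0.76 and can share its reads, and its other neighbour B3GALT5 had −0.36. At RUNX1T1, RARB and BACE2 the 3 co-expression libraries lay below the 3 MLL-AF4 libraries as well.

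DUSP2 (chr2:96143169-96145440), a nuclear phosphatase that switches off MAP kinases, had 3.29, 1.87 and 0 CPM in the co-expression libraries (7, 3 and 0 counts) and 10.4, 8.84 and 16.7 CPM in the AF4-MLL libraries (log2 −2.36, SE 0.44, adjusted p 0.00024). Its neighbours STARD7 and GPAT2 had log2 differences of 0.21 and −0.02. NPY5R (chr4:163343892-163352403), a neuropeptide Y receptor gene, had 2.82, 1.87 and 2.66 CPM against 9.12, 13.3 and 10.5 CPM (log2 −2.13, SE 0.43, adjusted p 0.00053), and it overlaps NPY1R, which differed by −0.76 (adjusted p 0.0527 by edgeR) and can share its reads. SLITRK3, a synaptic adhesion gene, had 3.29, 6.85 and 7.98 CPM against 18.9, 13.8 and 19.5 CPM (log2 −1.66, SE 0.32, adjusted p 0.00034). With local scaling DUSP2, NPY5R and SLITRK3 stayed called, with log2 differences of −2.36, −2.12 and −1.60. SLITRK3 was no longer called without co-expression replicate 1, and its neighbours LINC01324 and LINC01322 had log2 differences of −1.38 and −1.17. Other lower features were the clone-named AC010619.2 (141, 154 and 132 CPM against 217, 192 and 215 CPM), AC011700.1 (−1.06 on the log2 scale), and the pseudogenes RNU1-85P (−1.27) and ZSWIM5P3 (−1.30). The call for each of the pseudogenes was lost in 2 of the 6 fits that leave out 1 library (RNU1-85P without co-expression or AF4-MLL replicate 2, ZSWIM5P3 without co-expression or AF4-MLL replicate 1), and copies of such sequences elsewhere can take reads from each other. Further genes that were lower and stayed called with local scaling were picked after their values were seen. They were CELF2, a splicing regulator, with 11.3, 9.96 and 12 CPM against 31.9, 16 and 17.4 CPM, RIMS1, a scaffold of synaptic vesicle release, with 15, 20.5 and 29.2 CPM against 31.9, 38.7 and 37.7 CPM, and the ephrin receptor gene EPHB2 with 8.46, 8.09 and 5.32 CPM against 17.6, 14.9 and 18.1 CPM. Their adjusted p with local scaling was 0.00268, 0.0209 and 0.0443 by edgeR, and CELF2 lay within the higher run of 10p. Leaving out 1 library ended the call in each of the 6 fits for EPHB2, in 3 for CELF2 and in 1 for RIMS1, under the overall scaling.

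Some genes of low counts were lower by more, and were picked after their values were seen. LYPD1 (chr2:132643286-132671526), a membrane-anchored protein of the Ly6 family, had 0.94, 1.87 and 2.66 CPM in co-expression cells and 9.12, 8.84 and 11.9 CPM in AF4-MLL cells, 7 counts against 47, a ratio of 6.30 lower (95% interval 2.83 to 16.5). The clone-named genes AC010890.1 and AC009336.1 had no RefSeq position. AC010890.1 had 4 counts against 53 (ratio 12.4, interval 4.58 to 47.3) and AC009336.1 5 counts against 41 (ratio 7.70, interval 3.04 to 25; not called without co-expression replicate 1). NCKAP5-IT1 had 0 counts in every co-expression library and 7 to 12 in the AF4-MLL libraries, at least 2.38-fold lower when each library at 0 is set to 3 counts. GPR39, which LYPD1 overlaps, was not called, with a log2 difference of −1.06 (adjusted p 0.247), and neither was NCKAP5, after which the transcript is named, with −0.83 (adjusted p 0.359 by edgeR). TMEFF2, a membrane protein with follistatin domains, had 16, 14.9 and 19.9 CPM against 38.4, 30.9 and 30.7 CPM, and SLITRK1 9.40, 8.72 and 6.65 CPM against 24.7, 21.5 and 20.2 CPM. Both were also named after their values were seen. The neighbours of SLITRK1, SPRY2 and LINC00351, had log2 differences of −0.12 and −0.90.

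**Figure D4:**
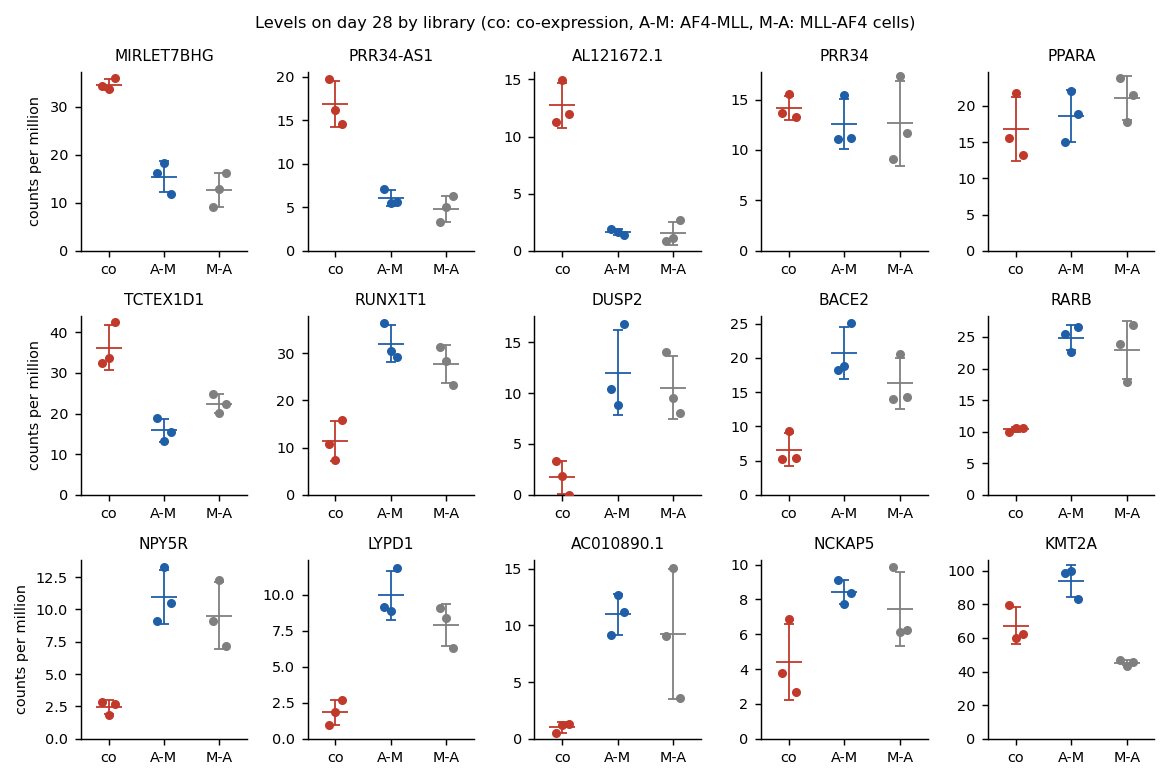
CPM of 15 genes in each library of day 28 (co-expression, AF4-MLL and MLL-AF4 cells). MIRLET7BHG lies at 33.6 to 35.9 CPM in co-expression cells and at 11.9 to 18.2 in AF4-MLL cells, and RUNX1T1 at 7.47 to 16 and 29.3 to 36.5.

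The genes that gave the fusions their parts were followed in every library. KMT2A had 79.9, 59.8 and 62.5 CPM in the co-expression libraries, 99, 99.99 and 83 CPM in the AF4-MLL libraries and 47, 43.5 and 45.6 CPM in the MLL-AF4 libraries. The co-expression libraries lay between the other groups and below AF4-MLL cells (log2 −0.45, SE 0.12, adjusted p 0.029), a call that was lost without co-expression replicate 2 or 3 or AF4-MLL replicate 1 or 2. AFF1 had 55.9, 56 and 62.5 CPM against 46.2, 50.3 and 60 CPM and was not called (log2 0.14, SE 0.14, adjusted p 0.76). Since the vectors hold parts of both genes, counts from a vector and from the chromosomal locus cannot be told apart. MIF, a cytokine gene, had 45.6, 51.1 and 54.5 CPM against 50.8, 37 and 38.4 CPM on day 28 (log2 0.23, SE 0.15, adjusted p 0.57), with overlapping groups, after a difference of 0.56 (SE 0.16, adjusted p 0.038) on day 3.

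Of 338 tested genes on 18 lists of pathways and markers, 12 were called (3.55%, against 1.69% of all genes tested). The lists were chosen with earlier results of these data known, so these shares are descriptions and were not tested. Of the 12, 8 lay in a called block of their own direction, against 202 of the 270 called genes with a RefSeq position. The median log2 difference of all genes was 0.005. None of 21 tested targets of MLL fusions was called by edgeR (2 had an unadjusted p under 0.05), with a list median of −0.025. Nearest to a call were EYA1 (−0.68 at adjusted p 0.054), a phosphatase and transcriptional coactivator, and RUNX1 (−0.49 at adjusted p 0.11), a regulator of blood stem cells, with lower values in co-expression cells. In the super elongation complex list 1 of 26 genes was higher, the elongation factor ELL3 on 15q (0.82 at adjusted p 0.0055), and the median was 0.147. Of 20 COMPASS members KMT2A was lower and the median was −0.119. Of 21 Polycomb genes none was called (3 at an unadjusted p under 0.05, median 0.085), with 0.49 (adjusted p 0.29) at PHC3 and −0.34 (adjusted p 0.3) at CBX6. RUNX1T1 was the 1 call among 7 tested genes of the RUNX1-ETO list (median −0.214).

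Among 35 tested HOX genes, which set positional identity and are the best known targets of MLL, 1 was higher and 1 lower (median −0.062). HOXB13 had 26.8, 26.8 and 30.6 CPM against 13, 16 and 20.2 CPM (log2 0.75, SE 0.22, adjusted p 0.045) and HOXD8 30.1, 47.9 and 23.9 CPM against 50.1, 52.5 and 55.1 CPM (log2 −0.57, SE 0.16, adjusted p 0.04). Both calls rested on few libraries: HOXB13 stayed called only without AF4-MLL replicate 3 and HOXD8 only without co-expression replicate 2, among the 6 fits that leave out 1 library. Of 14 HOX partners of the TALE family none was called (2 at an unadjusted p under 0.05, median 0.092), MEIS2 on 15q coming nearest (0.48 at adjusted p 0.066) and IRX6 at −0.57 (adjusted p 0.37). No kidney gene of 16 was called (median 0.012; GATA3 0.61 at adjusted p 0.22) and no marker of the HEK293 line of 12 (median −0.035; VIM 0.22 at adjusted p 0.52, NEFM −0.37 at adjusted p 0.54). Of 11 tested blood markers PTPRC, the CD45 gene on 1q, was lower (−1.22 at adjusted p 0.0063; list median −0.158), and the summed level of the list was 118 to 140 CPM in co-expression cells and 142 to 155 CPM in AF4-MLL cells. That call was lost without co-expression replicate 2 or AF4-MLL replicate 1 or 2.

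In the list of the endoplasmic reticulum stress response, 1 of 20 genes was higher and 1 lower (median 0.210). XBP1, the transcription factor of that response, had 35.7, 30.5 and 39.9 CPM in the co-expression libraries, 16.3, 20.4 and 20.2 CPM in the AF4-MLL libraries and 28, 30.7 and 30.4 CPM in MLL-AF4 cells (log2 0.86, SE 0.20, adjusted p 0.0053), and with local scaling it was not called (0.73 at adjusted p 0.08). CRELD2, a secreted protein induced by the same stress, was lower, with a log2 difference of −0.66 (adjusted p 0.018), and lay on the lower block of 22q. The integrated stress response list of 15 genes had ATF4, its effector, higher with 47.9, 46.1 and 57.2 CPM against 31.3, 30.9 and 35.6 CPM (log2 0.59, SE 0.16, adjusted p 0.03) and ATF3, on 1q, lower with −0.78 (adjusted p 0.006). The median of that list was 0.018. ATF4 and the pigment gene OCA2 (1.09 at adjusted p 0.03) stayed called only without AF4-MLL replicate 3. XBP1 was not called without co-expression replicate 1, ATF3 without AF4-MLL replicate 3, and CRELD2 without co-expression replicates 2 or 3 or AF4-MLL replicate 2. ELL3 was not called without co-expression replicate 2 or AF4-MLL replicate 2.

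OCA2 was the 1 call of 10 tested genes of the 15q11-q13 region, where 9 of 10 were above 0 and the median was 0.668, falling to 0.099 with local scaling. The interferon list of 14 genes (median 0.003; MX2 −1.0 at adjusted p 0.15, IRF1 0.50 at adjusted p 0.3) and the G1 list of 20 cell cycle genes (median 0.114; CDKN2B 0.40 at adjusted p 0.15, CCND2 −0.85 at adjusted p 0.2) had no call. Neither had the 40 adhesion genes, of which 12 were above 0 (median −0.141; NCAM2 −1.40 at adjusted p 0.061, CDH2 −0.65 at adjusted p 0.076). The 13 protein genes of the mitochondrial genome had no call (median 0.023; MT-ND1 0.05 at adjusted p 0.97, MT-CYB 0.04 at adjusted p 0.98), and of 36 nuclear genes of the respiratory chain COX20 alone was lower (median 0.009). Of the lists without a call, an unadjusted p under 0.05 was found for 4 kidney, 3 interferon, 3 G1 and 8 adhesion genes and for 0 of the HEK293 markers and the mitochondrial protein genes, against 12.7% of all genes tested. After local scaling 2 of the 12 calls remained, KMT2A and RUNX1T1.

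**Figure D5:**
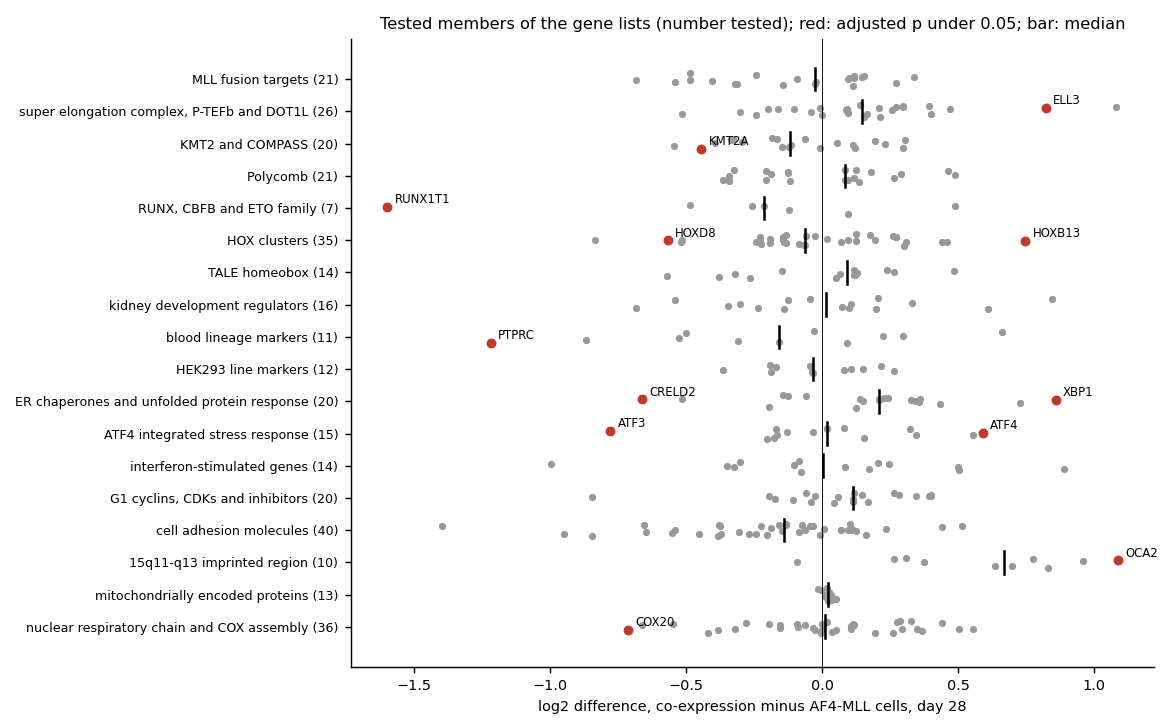
Log2 difference (co-expression minus AF4-MLL cells, day 28) of each tested gene of the 18 lists, with list medians and called genes marked. The 15q11-q13 list has a median of 0.668, and the medians of the other lists lie within 0.25 of 0.

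Day 3, sampled at the end of the AF4-MLL pulse, used 6 other libraries of the same pair of settings, and 226 genes were called there (1.28%). That count was 36 with DESeq2, 133 and 99 without co-expression replicate 2 or 3 of day 3, and 86 without AF4-MLL replicate 1 of day 3 and likewise without AF4-MLL replicate 3. Of the 299 calls of day 28, 286 (95.7%) had the same sign on day 3, against 60.5% of all genes tested. In all, 71 genes were called in the same direction on both days, 29 higher and 42 lower, and none in opposite directions. Those 71 were 23.7% of the day 28 calls and 31.4% of the day 3 calls. Of the 71, 51 lay in a block called on day 28 in their own direction, against 202 of the 299 day 28 calls. Both totals include genes without a RefSeq position, which lie in no block. Of the blocks, 84 were called on day 3 (28.2%), and 59 were called in the same direction on both days. The plateaus were on the same side on both days. On day 3 the first part of 15q stood at 150.4% ± 5.3, 17p at 71.4% ± 0.61, 1q from ABL2 at 80.6% ± 0.83, chromosome 9 from CNTNAP3 at 83.4% ± 1.5, 10p at 118% ± 2.9, the second part of 15q at 108% ± 1.4, 17q at 110.5% ± 2.8, the first part of 22q at 106% ± 2.4 and its last block at 82.4% ± 2.4 of the AF4-MLL mean (SD, n = 3).

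With local scaling 50 genes were called on day 3, and 15 were called in the same direction on both days, 40.5% of the 37 and 30% of the 50. They were RUNX1T1, KMT2A, TMEFF2, LYPD1, TCTEX1D1, SLITRK1, MIRLET7BHG, RIPPLY2, AC010890.1, AL121672.1, AL121672.2, NCKAP5-IT1, PRR34-AS1, AC009336.1 and AC092718.7, listed here after their values were seen. The clone-named genes among them and NCKAP5-IT1 had no RefSeq position and were not set against neighbours. The day 3 log2 differences were 1.32 (SE 0.22, adjusted p 1.6e-05) at MIRLET7BHG, −1.34 (SE 0.26, adjusted p 0.00051) at RUNX1T1 and 1.06 (SE 0.24, adjusted p 0.0052) at TCTEX1D1. A test of the change of the difference from day 3 to day 28 called 0 genes by edgeR, with 892 genes at an unadjusted p under 0.05 (DESeq2 called 0, with 309), and 0 blocks by limma, with 37 at an unadjusted p under 0.05. No gene or block was thus shown to differ more on one day than on the other in these fits on all libraries. Summed over whole chromosomes, the difference changed between the days on 5 of 23 (21.7%) by limma, the chromosomes 6, 7, 9, 13 and 22, a test chosen after the data were seen. On chromosome 9 the log2 difference went from −0.19 on day 3 to −0.24 on day 28 (change −0.05, SE 0.02, adjusted p 0.032). On chromosome 22 it went from −0.03 to 0.03 (change 0.06, SE 0.02, adjusted p 0.038). There the first block (RNA5-8SN4 to DGCR6L) went from −0.25 on day 3 to −0.067 on day 28. The first part of 22q stood at 106% on day 3 and 111% on day 28. On chromosome 13 the log2 difference went from 0.11 to −0.00083 (change −0.11, SE 0.02, adjusted p 0.00087). Leaving out 1 library gave 1 to 5 chromosomes, and only the change on chromosome 13 passed in all 14 alternatives.

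By the selection the study applied to its ATAC-seq data (unadjusted p under 0.05, absolute log2 difference over 1 and a mean count over 2), 241 genes were selected in this fit on day 28 (1.36%), 63 higher and 178 lower. Of these, 96 were also called by adjusted p. Without co-expression replicate 1 the selection took 394 genes, and with the study's stricter limit of 2 on the absolute log2 difference it took 10.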

How the data were processed

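ATAC-seq of 18 HEK293T libraries (3 for each of 6 groups, grouped by the labels) was deposited by the authors as raw counts, whole numbers for 54425 genes. GRCh38, bcl2fastq, Bowtie2 and HTSeq are named in the submitters' processing notes. Versions, the region counted per gene, duplicate handling and any correction for the transposase offset are not given in the sources used here. Without strand, overlapping genes can share reads.

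All 18 libraries were fitted together (6 groups, no covariate) with edgeR 4.0.16 in R 4.3.3, using TMM, filterByExpr (minimum count 10, minimum total 15) and quasi-likelihood tests, called at a Benjamini-Hochberg adjusted p under 0.05. The biological coefficient of variation was 7.48%. Symbols were matched to RefSeq GRCh38.p14 for position and type (15481 of 17660 tested genes, 87.7%). Blocks of 50 neighbouring tested genes, and whole chromosomes, were summed and tested with limma 3.58.1 (trend). Local scaling used the block totals as offsets. The mitochondrial share was compared by an exact permutation test. Intervals and floors (3 counts per library) cover counting error only. Scripts were tested on simulated data. P-values measure the spread between these libraries.

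Named genes were KMT2A, AFF1 and MIF, and, among the called ones that averaged 10 counts or more over the 6 libraries with no overlap of the groups, those with the smallest adjusted p: higher, 8 on chromosome 15, 10 other protein-coding and 4 others, and lower, 12 protein-coding and 4 others. To these come every called list member, 2 members of each list without a call, and the 2 largest differences per direction. Values of 2 genes that the rule names are not reported here. The comparison and the lists were chosen with earlier results of these data known. Alternatives were DESeq2 1.42.0, other scalings, no filter, other block sizes and leaving out each library.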

Additional observations from a re-analysis of the deposited data

Results flagged for a closer look

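The difference between co-expression and AF4-MLL cells, summed over a whole chromosome, was not the same on both days for 5 of 23 chromosomes by a test of the change itself (limma, adjusted over the 23 chromosomes). The change in log2 difference from day 3 to day 28 was −0.11 on chromosome 13 (adjusted p 0.00087), −0.056 on chromosome 7 (adjusted p 0.032), −0.054 on chromosome 6 (adjusted p 0.032), −0.050 on chromosome 9 (adjusted p 0.032) and 0.063 on chromosome 22 (adjusted p 0.038). On chromosomes 6, 7 and 13 co-expression cells were higher on day 3, with log2 differences of 0.055, 0.049 and 0.11, and differed by 0.00087, −0.0070 and −0.00083 on day 28. The change on chromosome 13 passed the test in 14 of 14 alternatives, that on chromosome 22 in 8, on chromosomes 6 and 7 in 7 and on chromosome 9 in 5. No gene was called on its own for a change between the days on all libraries (edgeR, 892 at an unadjusted p under 0.05).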

How the results depend on the processing

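The count of genes that differed on day 28 was 33 with DESeq2, 81 with library size as the only scaling, 123 with no filter, 154 with scaling per chromosome and 37 with local scaling. Leaving out 1 library gave 103 to 200, the lowest without co-expression replicate 1 and then 122 without co-expression replicate 2 and 125 without AF4-MLL replicate 2. On day 3 it was 36 with DESeq2 and 107 with no filter, and 86 to 179 without 1 library. The test of change between the days gave 0 to 1 without 1 library, the 1 call without co-expression replicate 3 of day 3. The number of chromosomes whose difference changed between the days (5) was 3 without the 1% of genes with the highest counts, 1 to 5 without 1 library and 5 with the replicate block. These 3 kinds of alternative were chosen after seeing the data. The study's selection gave 10 genes at an absolute log2 difference over 2, 146 at a mean count over 10, and 324 to 394 without 1 library. Of the list genes 2 were called with DESeq2, 4 with library size only, 6 with no filter, 2 with local scaling and 4 to 11 without 1 library. The causes of these shifts were not tested. Blocks were steadier, with 71 to 94 called across the alternatives at 50 genes, and 48 of 145 at 100 genes. Over 67 named genes and 1053 alternative values, 914 kept direction and side of the threshold, 128 lost the call, 5 gained it and 6 reversed. The reversed values were −0.087 for MEIS2 and −0.075 for VIM with local scaling, and for MT-ND1 −0.080 to 0.17 and MT-CYB −0.078 to 0.16 without 1 library. The difference in mitochondrial share ran from −1.24 to 1.60 points without 1 library and was 0.294 without ribosomal RNA genes. Only 8 genes were called under all 16 alternatives, 2 higher and 6 lower. Genes without a value in some alternatives could not reach 16. Of these, DUSP2, BACE2, NPY5R and LYPD1, for example, were called in each of the 15 alternatives that gave them a value. PRR34-AS1 was called in 14 of its 15. DESeq2 gave neither these example genes nor PRR34-AS1 an adjusted p, so none of them is among its 33 calls. Libraries with the same replicate number did not deviate together (r of −0.005, −0.026 and −0.0005 over 7495 genes). Counts at single genes were few, so these values cannot exclude that the numbers pair the libraries. With the replicate number as a block, 270 genes were called on day 28, 218 on day 3, 0 for the change, 243 by the study's selection, 11 list genes and 86 blocks. With 3 libraries a group and few counts at most genes, small differences at single genes were not detectable at this depth.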

Other observations

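Mitochondrial DNA, which has no nucleosomes and is cut readily by the transposase, gave most of the counts in both groups. Its share was 68.5, 63.6 and 64.5% in the co-expression libraries and 64.2, 68.0 and 63.6% in the AF4-MLL libraries, a difference of 0.246 points between the means (exact two-sided permutation p 0.8, where 3 against 3 libraries cannot go below 0.1). The groups overlapped.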
